A study of Mus musculus with 6 samples.

Results

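Prostaglandins and leukotrienes are lipid mediators made from arachidonic acid, and the 10 genes described here encode the enzymes that make them: the cyclooxygenases Ptgs1 and Ptgs2, the terminal synthases Ptges, Ptgds, Ptgis and Tbxas1, and the leukotriene and lipoxygenase genes Alox5, Alox5ap, Ltc4s and Alox15. They were chosen by gene symbol from the 26012 genes listed in the deposited table. Measured values were not part of that choice by symbol, but earlier results of these data were known when it was made. All 10 reached the minimum mean of 1 normalized count and so were among the 21126 genes tested. The hearts came from male C57BL/6 mice aged 8 weeks that underwent myocardial infarction (MI) in which the left anterior descending coronary artery was tied. At the same operation each heart was injected with 10 μg of mimic, either a control mimic (3 control hearts) or miR-19a/miR-19b mimic (3 miR-19 mimic hearts), and ventricular tissue was taken on day 4 after MI for sequencing of polyadenylated RNA. Both groups were therefore infarcted and injected, and no sham-operated or uninjected heart was analysed here. The comparison asks whether expression of these genes in the infarcted heart differed with the miRNA mimic.

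In this pathway, phospholipases release arachidonic acid from membranes, and the cyclooxygenases turn it into the common precursor prostaglandin H2. Terminal synthases then make prostaglandin E2, prostaglandin D2, prostacyclin or thromboxane, each of which acts on receptors of its own. In the other branch, the lipoxygenase Alox5, helped by the membrane protein Alox5ap, makes leukotriene A4, which Ltc4s joins to glutathione to give the cysteinyl leukotrienes. In the infarcted heart these mediators are known for their actions on vessels, platelets and the leukocytes that enter the injured wall.

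The 2 injected miRNAs have the same seed, so they are shown with the sites in this gene set that match all or part of it. The labels name the mimics without an arm, and the mature 3p forms are printed here. Mature miRNAs are not polyadenylated, so this assay did not measure their levels. Mature mouse sequences were taken from RefSeq on GRCm38.p6, with bases 2 to 8 from the 5′ end, the seed, in capitals. They are 23 bases long and differ at 1 base, U11C, written as the base of miR-19a, the position and the base of miR-19b. The gene of miR-19a-3p places it at chr14:115044048-115044070 on the plus strand, and miR-19b-3p is encoded at chr14:115044358-115044380 on the plus strand and at chrX:52741991-52742013 on the minus strand.
mmu-miR-19a-3p: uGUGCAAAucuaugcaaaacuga
mmu-miR-19b-3p: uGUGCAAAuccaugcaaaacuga

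The longest annotated 3′ untranslated region (UTR) of each gene (GENCODE M21, GRCm38) was searched on the transcript strand for TTTGCACA, TTTGCAC and TTGCACA, of which TTTGCAC is complementary to bases 2 to 8, TTGCACA to bases 2 to 7 with a following A, and TTTGCACA to bases 2 to 8 with that A. The longer motif contains both shorter ones. A match was found in 2 of the 10 genes, both cyclooxygenases, and both were the 7-base TTGCACA, which leaves base 8 of the seed unmatched. Among the 15821 tested genes with an annotated 3′ UTR, 18.4% held at least 1 match of any of the 3 kinds. Each site is shown with its flanks in lower case and the match in capitals. That of Ptgs1 lies at chr2:36251643-36251669 on the plus strand, in exon 11 of 11, with the match starting at base 306 of a 3′ UTR of 921 bases. That of Ptgs2 lies at chr1:150106802-150106828 on the plus strand, in exon 10 of 10, with the match starting at base 1034 of a 3′ UTR of 2445 bases.
Ptgs1 site: agggtagggtgtggTTGCACAcacctt
Ptgs2 site: aaacagtttttctgTTGCACAgtatga

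Between 19398196 and 23645308 reads per heart fell on genes. Values are given as normalized counts, that is, reads divided by a factor for each library, and means are given ± SD over 3 hearts a group. Cardiomyocyte markers (7 genes, such as Myh6 and Tnnt2) summed to 423971 to 755745 normalized counts in 5 hearts and to 258287 in miR-19a/19b mimic replicate 3, the lowest of the 6. The same heart had the highest sum of the 8 macrophage markers, 86666 against 55858 to 79084 in the others, and of the 8 neutrophil markers, 2586 against 838 to 2037. Lyz2 alone made up 48248 of that macrophage sum, and the markers did not all follow the sums. Adgre1, Csf1r, Mrc1 and Fcgr1 of the macrophage list, and Mmp8, Retnlg, Ngp and Ly6g of the neutrophil list, were each higher in another heart than in that heart. The share of reads from mitochondrial genes was 3.18% in that heart and 4.18% to 6.93% in the others. MiR-19a/19b mimic replicate 1 stood apart in another way, with a sum of 2734 for the 7 skeletal muscle markers against 28.3 to 70.9 in the other hearts. The log2 fold changes of all 10 genes and of the pathway genes named here are therefore also given without replicate 3. Since the RNA came from whole ventricular tissue, fewer cells of a type and less RNA per cell cannot be told apart in any of these values.

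None of the 10 genes passed the test between the groups. With limma on log2(normalized count + 1) over all 21126 genes, the adjusted p was 0.9996 for every one of them, and 0 of the 10 had an unadjusted p under 0.05 in either direction, where 2.63% of all genes tested were lower and 1.39% were higher at that threshold (4.01% in all). No gene of any kind passed an adjusted p of 0.05 (0% of those tested, smallest adjusted p 0.396). The DESeq2 Wald test, run on reads recovered from the normalized counts, called 28 genes lower and 1 higher, or 0.133% and 0.00473% of those tested (0.137% in all), and no member. At an unadjusted p under 0.05 DESeq2 again called none of the 10, where 1.9% of all genes tested were lower and 0.838% higher (2.74% in all). The values of the 6 hearts overlapped between the groups for all 10 genes, while 9.2% of all genes tested did not overlap (5.3% lower and 3.9% higher in the mimic group). The log2 fold changes (miR-19a/19b mimic over control mimic) were positive for 6 genes and negative for 4, from -0.37 for Ptgs2 to 0.49 for Ltc4s, with a median of 0.0057 against 0.0041 over all genes tested.

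**Figure D1:**
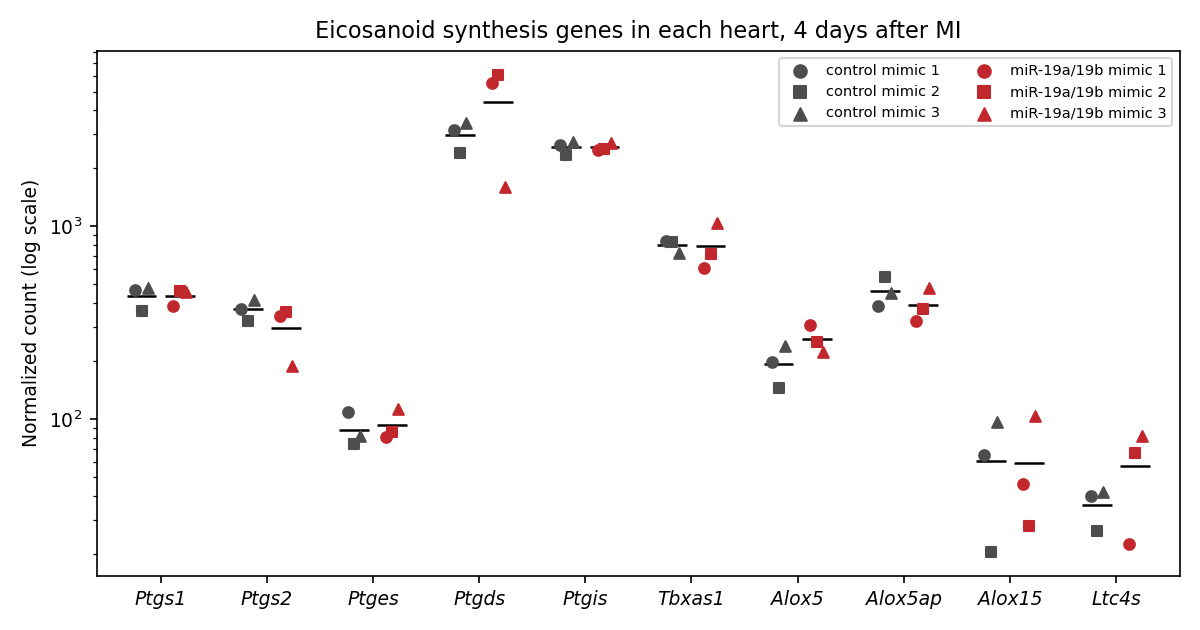
Normalized count of each gene (log axis) in the 3 control mimic hearts (grey) and the 3 miR-19a/19b mimic hearts (red), with a marker shape for each replicate number, which was not taken to pair hearts across the groups, and a line at each group mean. The groups overlap for all 10 genes, and the widest spread in level among the abundant genes is that of Ptgds in the miR-19a/19b mimic hearts, from 1600.1 to 6123.

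Ptgs1, the cyclooxygenase that most tissues make at rest (ENSMUSG00000047250, chr2:36230426-36252272, plus strand), had 469, 362 and 481 normalized counts in control hearts and 384, 459.8 and 454 in miR-19 mimic hearts. The mimic values all lay within the control range, and the means were 437 ± 65.4 and 433 ± 42.1. The log2 fold change was -0.01 (SE 0.14, limma p 0.952), with a 95% interval on the fold of 0.795 to 1.24. Ptgs2, the inducible cyclooxygenase (ENSMUSG00000032487, chr1:150100031-150108227, plus strand), had 375, 323 and 415 in control hearts and 341, 361 and 189 in miR-19 mimic hearts. Replicates 1 and 2 of the mimic group lay within the control range, and replicate 3 lay below every other heart. Its log2 fold change was -0.37 (SE 0.23, limma p 0.152), with an interval on the fold of 0.536 to 1.12, and without that heart it was -0.07. The ratio of Ptgs1 to Ptgs2 per kilobase of gene length was 1.47, 1.32 and 1.37 in control hearts and 1.33, 1.503 and 2.83 in miR-19 mimic hearts (exact two-sided permutation test, p = 0.4, where 3 against 3 hearts cannot go below 0.1). Per kilobase, Ptgs1 transcripts thus outnumbered those of Ptgs2 in every heart of both groups. The Ptgs1 and Ptgs2 sites printed above lay in transcripts whose levels overlapped between the groups.

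Ptgds, the lipocalin-type synthase of prostaglandin D2 (ENSMUSG00000015090, chr2:25466709-25470046, minus strand), was the most abundant of the 10 genes. It had 3144, 2392 and 3419 normalized counts in control hearts and 5517, 6123 and 1600.1 in miR-19 mimic hearts. The first and second mimic replicates thus lay above every control heart and the third below every control heart. The group means were 2985 ± 532 and 4413 ± 2455. The log2 fold change over all hearts was 0.36 (SE 0.44, limma p 0.439, interval on the fold 0.641 to 2.56). DESeq2 gave 0.56 (p 0.323). Without miR-19a/19b mimic replicate 3 it was 0.98, with a limma adjusted p of 0.0101, the single case in which a member passed the test when any 1 heart was left out. In that fit 361 genes were called higher (1.71% of those tested) and 154 lower (0.729%). Of the 7 cardiomyocyte markers, 5 were higher and 1 lower at an unadjusted limma p under 0.05 in the same fit. Over all genes tested, 8.41% were higher and 6.12% lower at that threshold. The median log2 fold change of these markers was 0.50, and 2 of them were higher at an adjusted p under 0.05.

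Ptgis, the synthase of prostacyclin, a vasodilator that restrains platelets (ENSMUSG00000017969, chr2:167191805-167240604, minus strand), had 2649, 2343 and 2740.1 normalized counts in control hearts and 2495, 2529 and 2701 in miR-19 mimic hearts. These were the steadiest levels of the 10, with means of 2578 ± 208 and 2575 ± 111. The log2 fold change was 0.00 (SE 0.10, limma p 0.993), with an interval on the fold of 0.850 to 1.18. Tbxas1, the thromboxane synthase (ENSMUSG00000029925, chr6:38875404-39084585, plus strand), had 840.0, 829 and 729.6 in control hearts and 607, 719 and 1035 in miR-19 mimic hearts. The mimic group held both the lowest and the highest values of the 6 hearts. Its log2 fold change was -0.06 (SE 0.18, limma p 0.762, interval on the fold 0.723 to 1.28). Ptges, an inducible synthase of prostaglandin E2 (ENSMUSG00000050737, chr2:30889471-30929863, minus strand), had 108, 74.2 and 82.2 in control hearts and 80.7, 85.6 and 113 in miR-19 mimic hearts. One heart of each group stood above 100 and the others between 74.2 and 85.6, and the log2 fold change was 0.08 (SE 0.21, limma p 0.711, interval on the fold 0.760 to 1.47).

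Counted per kilobase, Ptgds and Ptgis made up most of the transcripts of these 4 terminal synthases in every heart. The shares that follow use the gene lengths listed in the deposited table, which for Tbxas1 is 9094 bases where its longest annotated coding transcript has 1990. The share of Ptgds was 62.3%, 58.6% and 64.0% in control hearts and 76.0%, 77.4% and 44.8% in miR-19 mimic hearts. The share of Ptgis was 33.7%, 36.9% and 32.9%, and 22.1%, 20.53% and 48.6%. As parts of one sum these shares mirror each other, and the Ptgis count itself ranged only from 2343 to 2740.1. Tbxas1 held 1.51% to 5.25% and Ptges 0.454% to 1.33%, with the highest share of each in miR-19a/19b mimic replicate 3. With the longest coding transcripts as lengths, Tbxas1 held 3.99% to 14.4%, Ptgds 49.2% to 81.1% and Ptgis 14.3% to 35.5%. On either scale miR-19a/19b mimic replicates 1 and 2 had a higher share of Ptgds and lower shares of the other 3 than any control heart, and replicate 3 the reverse. None of the 4 shares differed between the groups by an exact two-sided permutation test (p = 0.9 for Ptgds, 0.8 for Ptgis, 1 for Tbxas1 and 1 for Ptges). The ratio of Ptgis to Tbxas1 per kilobase, which sets the prostacyclin synthase against the thromboxane synthase, was 11.2, 10.0 and 13.3 in control hearts and 14.6, 12.5 and 9.25 in miR-19 mimic hearts (exact permutation p = 0.8). With the longest transcripts it was 2.98, 2.67 and 3.55, and 3.88, 3.32 and 2.47, so the size of this ratio depends on the length used.

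**Figure D2:**
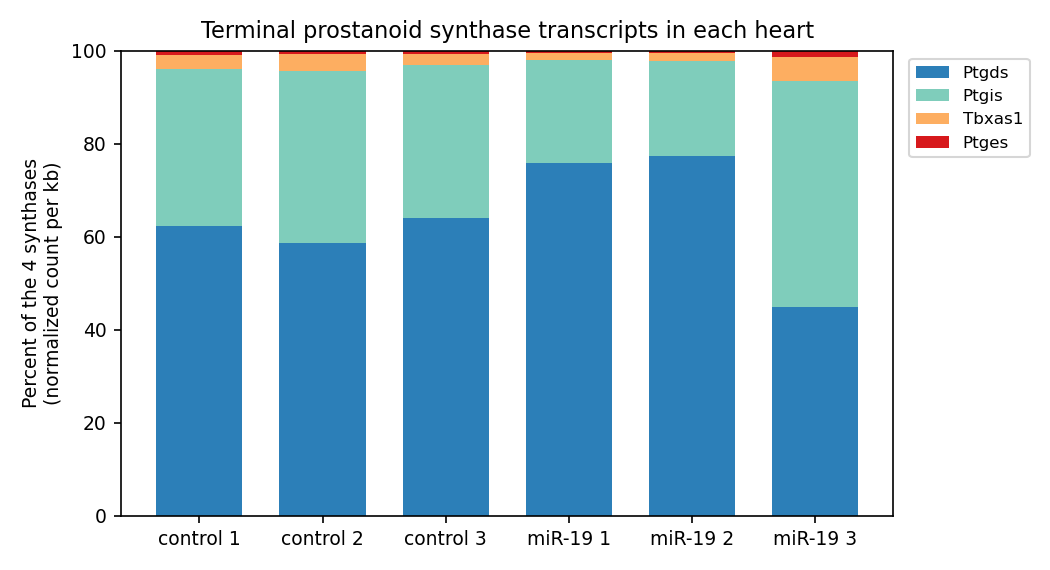
Share (percent, stacked bars) of Ptgds, Ptgis, Tbxas1 and Ptges in the summed normalized counts per kilobase of these 4 synthases, for each heart. Ptgds held 58.6% to 64.0% in the control mimic hearts, then 76.0%, 77.4% and 44.8% in the 3 mimic hearts, in order of replicate number.

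Alox5, the lipoxygenase that starts leukotriene synthesis (ENSMUSG00000025701, chr6:116410077-116461178, minus strand), had the smallest p of the 10 genes. It had 197, 145 and 240.1 normalized counts in control hearts and 309, 252 and 223 in miR-19 mimic hearts. Replicates 1 and 2 of the mimic group were above all control hearts, and replicate 3 was below 1 of them. Its means were 194 ± 47.4 and 261 ± 43.7, and its log2 fold change was 0.44 (SE 0.20, limma p 0.0564) and an interval on the fold of 0.990 to 1.87. Alox5ap, the membrane protein that presents arachidonic acid to Alox5 (ENSMUSG00000060063, chr5:149264767-149288153, plus strand), had 388, 543.6 and 448 in control hearts and 322, 372 and 479 in miR-19 mimic hearts. Its order across the hearts was not that of Alox5: control mimic replicate 2 had the most Alox5ap and the least Alox5, and miR-19a/19b mimic replicate 1 the least Alox5ap and the most Alox5. Alox5ap had a log2 fold change of -0.24 (SE 0.18, limma p 0.206, interval on the fold 0.642 to 1.12). The ratio of Alox5ap to Alox5 per kilobase was 5.70, 10.8 and 5.40 in control hearts and 3.01, 4.28 and 6.21 in miR-19 mimic hearts, with means of 7.30 ± 3.04 and 4.50 ± 1.61 (exact two-sided permutation test, p = 0.3).

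Ltc4s, the leukotriene C4 synthase (ENSMUSG00000020377, chr11:50236469-50238616, minus strand), was the gene with the largest log2 fold change and also among those with the fewest reads, 21 to 95 per heart. It had 39.8, 26.3 and 42.0 normalized counts in control hearts and 22.6, 67.0 and 82.1 in miR-19 mimic hearts. The mimic group held the lowest value and the 2 highest. The log2 fold change was 0.49 (SE 0.45, limma p 0.301, interval on the fold 0.695 to 2.84), and leaving out 1 heart moved it either way. It was 1.05 without miR-19a/19b mimic replicate 1 (unadjusted limma p 0.00632, adjusted p 1), 0.14 without miR-19a/19b mimic replicate 3 (unadjusted p 0.739), and 0.29 without miR-19a/19b mimic replicate 2 or control mimic replicate 2. Alox15, a lipoxygenase of alternatively activated and resident macrophages (ENSMUSG00000018924, chr11:70344152-70352031, minus strand), had 65.2, 20.49 and 97.2 in control hearts and 46.3, 27.8 and 104 in miR-19 mimic hearts. Both groups held low and high hearts, and their means stood at 61.0 ± 38.5 and 59.3 ± 39.6. At a log2 fold change of 0.01 (SE 0.60, limma p 0.987), it had the largest SE of the 10 and an interval on the fold of 0.392 to 2.59.

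**Figure D3:**
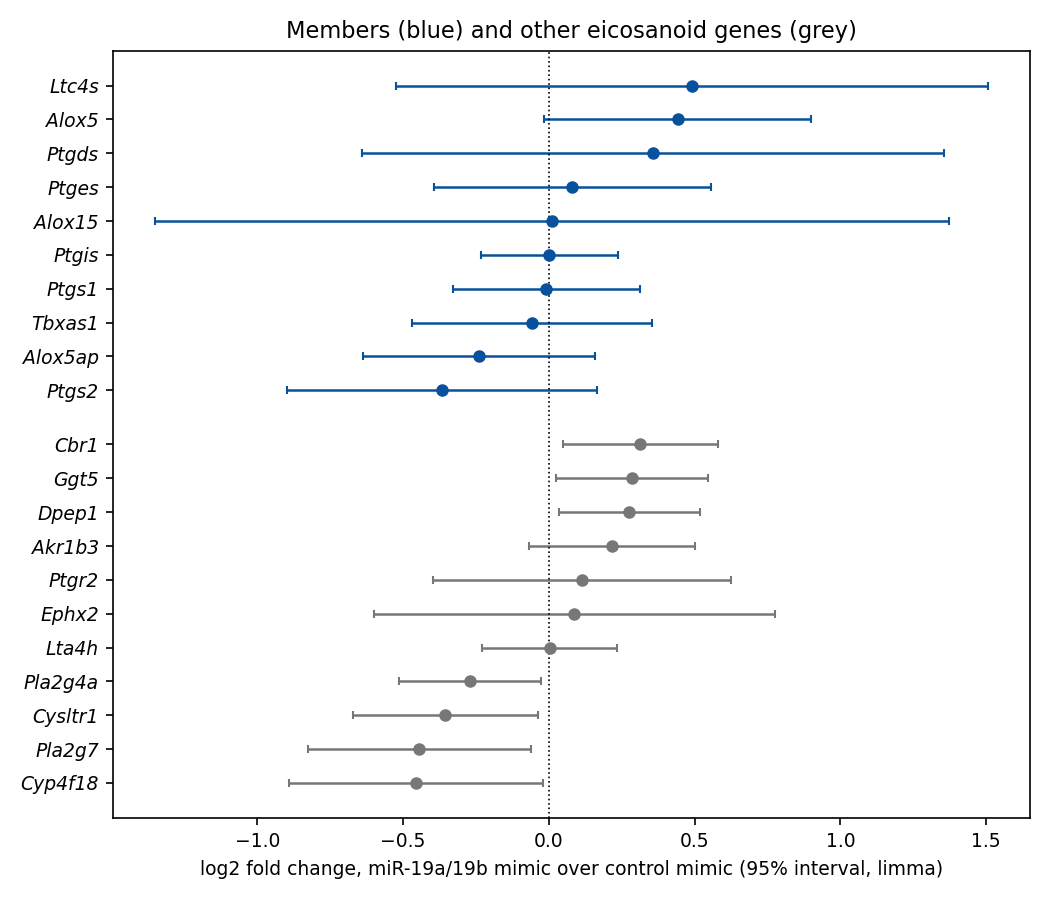
Log2 fold change (miR-19a/19b mimic over control mimic, limma) with its 95% interval for the 10 genes (blue) and for other eicosanoid pathway genes named in the text (grey). The interval of every blue gene covers 0, and it runs from -1.35 to 1.37 for Alox15 and from -0.23 to 0.24 for Ptgis.

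How well the data could resolve a difference varied among the 10 genes. The within-group SD on the log2 scale was 0.095 for Ptgis, 0.19 for Ptgs1 and 0.27 for both Ptges and Alox5ap, and it was 0.74 for Ltc4s, 0.78 for Ptgds and 1.04 for Alox15. The median within-group SD of the 10 genes was 0.30, against 0.18 for all genes with a mean of at least 20. Summed over the 10 genes the hearts held 8010 ± 850 normalized counts in the control group and 9367 ± 2112 in the mimic group (exact permutation p = 0.4). Without Ptgds the sums were 5024 ± 318 and 4953 ± 393 (exact permutation p = 0.9).

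Leaving out single hearts moved the values of several genes, and the most members passed the unadjusted threshold when miR-19a/19b mimic replicate 3 was the one left out. Without it Alox5 had a log2 fold change of 0.55 (unadjusted limma p 0.0166, adjusted p 0.200), Alox5ap one of -0.40 (unadjusted p 0.0195, adjusted p 0.218) and Tbxas1 one of -0.27 (unadjusted p 0.0321, adjusted p 0.281). For Alox15 it was -0.49, for Ltc4s 0.14, and for Ptgs1, Ptgs2, Ptges and Ptgis -0.05, -0.07, -0.07 and -0.03. With Ptgds this made 2 members lower and 2 higher at an unadjusted p under 0.05, of 10, in a fit where 6.12% of all genes tested were lower and 8.41% higher at that threshold. Without control mimic replicate 3 the log2 fold change of Alox5 was 0.61 (unadjusted limma p 0.0188), and it was 0.25 without control mimic replicate 2 and 0.32 without miR-19a/19b mimic replicate 1. Alox15 ranged from -0.63 without control mimic replicate 2 to 0.47 without control mimic replicate 3. Ptgis stayed within -0.066 to 0.047 and Ptgs1 within -0.14 to 0.074, whichever heart was left out.

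**Figure D4:**
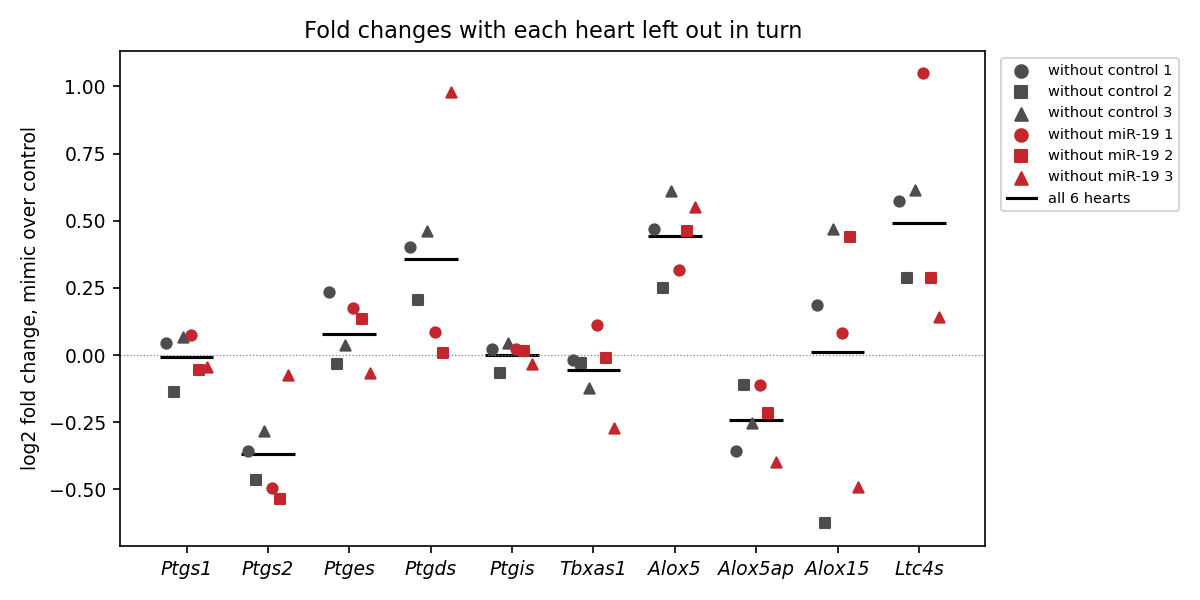
Log2 fold change of each gene with all 6 hearts (black line) and with each heart left out in turn (grey for a control mimic heart, red for a miR-19a/19b mimic heart). Ptgds ranged from 0.01 to 0.98, with the highest value without miR-19a/19b mimic replicate 3, and Ptgis from -0.066 to 0.047.

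Across the 6 hearts the levels of several of the 10 genes ran close to those of cell markers. The 3 genes nearest to Ptgds in log2 level across the 6 hearts, among 11609 genes with a mean of at least 100, were Mtfp1, Myl2 and Asb11, with root mean square differences of 0.04, 0.06 and 0.07 once each gene was centred on its own mean, where the level of Ptgds itself deviated by 0.67. Myl2, the ventricular myosin light chain of cardiomyocytes, had 23222, 19078 and 28517 normalized counts in control hearts and 41093, 46417 and 12726 in miR-19 mimic hearts. As a percentage of Myl2, Ptgds was 13.5%, 12.5% and 11.99% in control hearts and 13.4%, 13.2% and 12.6% in miR-19 mimic hearts. Across the 6 hearts this ratio had a coefficient of variation of 4.70%, compared with 47.9% for the Ptgds count itself, and it overlapped between the groups. Since Myl2 was picked for its likeness to Ptgds in these hearts, that steadiness follows from the choice. Against the 7-gene cardiomyocyte list, the nearest to Ptgds of 12 marker lists, Ptgds had 6.33, 5.64 and 6.25 counts per 1000 in control hearts and 7.30, 9.24 and 6.19 in miR-19 mimic hearts, a coefficient of variation of 18.99%. The part of cardiomyocyte content in the Ptgds values was not tested.

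Tbxas1 and Alox5ap lay nearest to the macrophage markers among 12 cell marker lists, with root mean square differences of 0.09 and 0.11 on the centred log2 scale. The mast cell list came next for both genes, at 0.14 each, where the genes themselves deviated by 0.24 and 0.25. Per 1000 counts of the 8 macrophage markers, Tbxas1 had 12.2, 10.5 and 10.4 in control hearts and 10.9, 11.0 and 11.9 in miR-19 mimic hearts. Alox5ap had 5.65, 6.87 and 6.36, and 5.76, 5.72 and 5.53. The coefficients of variation over the 6 hearts were 6.91% for Tbxas1 and 8.78% for Alox5ap on this scale, compared with 18.4% and 18.9% for their normalized counts. Since this list was the nearest of the 12 in the same hearts, the lower variation follows in part from that choice, and the ratios are given with no test. Of the 8 macrophage markers, 6 had a negative and 2 a positive log2 fold change, and none had an unadjusted limma p under 0.05 with all 6 hearts. Without miR-19a/19b mimic replicate 3, 5 of the 8 were lower and 0 higher at that threshold, where 6.12% of all genes tested were lower. Their median log2 fold change was then -0.30, and none passed an adjusted p of 0.05.

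Alox5 went another way, with 2.86, 1.84 and 3.41 per 1000 macrophage marker counts in control hearts and 5.53, 3.87 and 2.57 in miR-19 mimic hearts, a coefficient of variation of 38.1% compared with 24.1% for its normalized count. The genes nearest to Alox5 across the 6 hearts were Gm12473, an antisense transcript, Rasd1, and Cd163, a haemoglobin scavenger receptor of tissue-resident macrophages. Cd163 had 851, 579 and 991 normalized counts in control hearts and 1445, 1238 and 972 in miR-19 mimic hearts, so that both genes were lowest in control mimic replicate 2 and highest in miR-19a/19b mimic replicate 1. As a percentage of Cd163, Alox5 was 23.1%, 25.1% and 24.2% in control hearts and 21.4%, 20.3% and 23.0% in miR-19 mimic hearts, values that did not overlap between the groups. As Cd163 was picked for its likeness to Alox5, this ratio is given with no test. The genes nearest to Ptgs2 were Mmrn1, Lmcd1 and Ak4, all 3 lowest in miR-19a/19b mimic replicate 3. Of the 12 marker lists the cardiomyocyte list lay nearest to Ptgs2, at 0.29, where the level of Ptgs2 itself deviated by 0.36. The smooth muscle and pericyte list and the endothelial list each lay at 0.38, and the platelet list at 0.73. Ltc4s lay nearest to the eosinophil markers, with a difference of 0.32, and their sum was 53.1, 56.6 and 67.3 in control hearts and 38.7, 74.2 and 164 in miR-19 mimic hearts. Siglecf made up most of this sum, with 27.6, 41.0 and 42.0 against 28.0, 48.5 and 135. Of the other 5 markers, Epx and Il5ra had a mean under 1, and Ear1, Prg2 and Ccr3 had log2 fold changes of -0.94, -0.03 and 0.13, none with an unadjusted limma p under 0.05. For Alox5 and Alox15 the nearest lists, endothelial and cavity macrophage, differed by 0.33 and 0.63, where the genes themselves deviated by 0.33 and 0.85. For Alox5 no list was thus clearly nearer than a level with no pattern. Fn1 made up most of the cavity macrophage sum, with 104546 of a mean of 108328 in control hearts and 92596 of 96223 in miR-19 mimic hearts. The nearness of Alox15 to that list is therefore mainly a comparison with Fn1. These likenesses describe 6 hearts and say nothing of which cells made the transcripts.

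**Figure D5:**
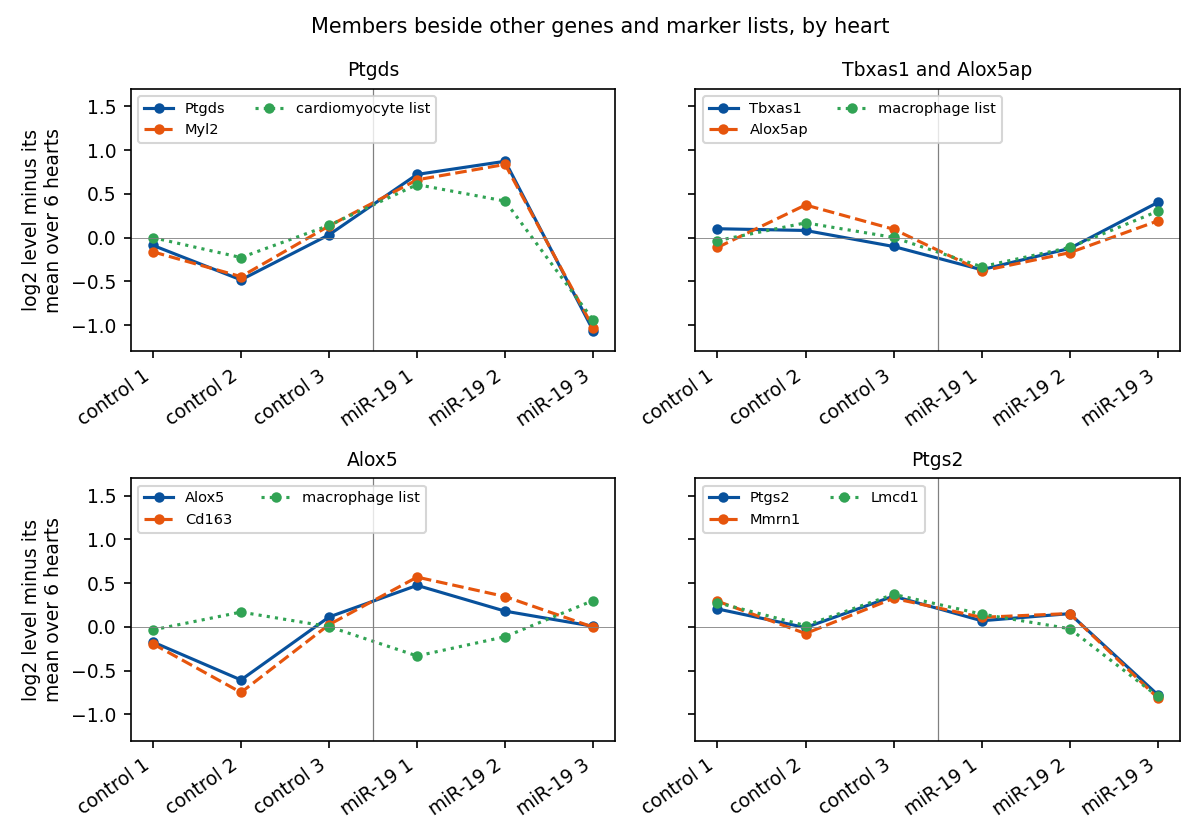
Log2(normalized count + 1) minus its mean over the 6 hearts, for members beside other genes or summed marker lists (lines only join the points of a gene, since hearts have no order). Ptgds ran with Myl2, and Tbxas1 and Alox5ap with the macrophage markers, while Alox5 and the macrophage markers ran apart.

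Per kilobase of the gene length in the deposited table, the 10 genes spanned a 97.2-fold range of mean level. Ptgds was highest at 2243 normalized counts per kilobase (970 to 3713 over the 6 hearts), followed by Ptgis at 1004 (913 to 1067), Alox5ap at 300 (227 to 383) and Ptgs1 at 112 (93.2 to 124). Below them came Tbxas1 at 87.2, Ptgs2 at 72.9, Ltc4s at 63.4, Alox5 at 55.4, Alox15 at 24.5 and Ptges at 23.1. Of neighbours in this order, Ptgis and Alox5ap, and Alox5ap and Ptgs1, had ranges over the 6 hearts that did not overlap. The ranges of the other neighbouring pairs overlapped. Places in this order depend on the length used: with the longest annotated coding transcript, Tbxas1 moved from rank 5 to rank 3, at 399 per kilobase, and Alox5 from rank 8 to rank 6, at 80.7.

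Of 59 other genes of the pathway, fixed as a list with earlier results of these data known, 50 were tested, 6 had a mean under 1 and 3 were not matched by symbol. At an unadjusted limma p under 0.05, 4 were lower (8.0%, against 2.63% of all genes tested) and 3 were higher (6.0%, against 1.39%), and none passed an adjusted p of 0.05. Their median log2 fold change was 0.0081, with 26 positive and 24 negative. Among the 11 phospholipase A2 genes, 2 were lower. Pla2g4a, the cytosolic phospholipase that frees arachidonic acid for both branches, had 653, 695 and 729.6 normalized counts in control hearts and 545, 545 and 633 in miR-19 mimic hearts. All mimic hearts lay below all control hearts, with a log2 fold change of -0.27 (SE 0.11, unadjusted limma p 0.0327, adjusted p 0.9996). Pla2g7, which breaks down platelet-activating factor, had 2010.4, 2337 and 1921 against 1245, 1456 and 1978, with a log2 fold change of -0.44 (unadjusted limma p 0.0273). Its groups overlapped through miR-19a/19b mimic replicate 3.

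Of 9 other lipoxygenase and leukotriene enzymes tested, 8 had a positive log2 fold change, as did 10728 of all 21126 genes tested. The exception was Dpep2, another dipeptidase gene, at -0.23 (limma p 0.169). It had 865, 794 and 837 normalized counts in control hearts and 576, 692 and 894 in miR-19 mimic hearts. The 2 past the unadjusted threshold (22.2%, against 1.39% of all genes tested higher) act after Ltc4s, and neither passed an adjusted p of 0.05. Ggt5, which converts leukotriene C4 to D4, had 396, 419.6 and 359.7 normalized counts in control hearts and 436, 512 and 484 in miR-19 mimic hearts (log2 fold change 0.28, unadjusted limma p 0.0359). Dpep1, a dipeptidase that converts leukotriene D4 to E4, had 1103, 1229.7 and 1074 against 1383, 1488 and 1258 (0.28, unadjusted limma p 0.0298). Both were higher in each mimic heart than in any control heart, as were 3.9% of all genes tested. Cysltr1, a receptor for these cysteinyl leukotrienes, was on the other side, with 212, 259.6 and 269 in control hearts and 182, 186 and 209 in miR-19 mimic hearts (-0.36, unadjusted limma p 0.0323). Of the 5 leukotriene and lipoxin receptors tested, 4 had a negative log2 fold change. Lta4h, which makes leukotriene B4 from the same precursor, had means of 1284 ± 29.7 and 1290.3 ± 125 (0.00, limma p 0.978).

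Among the 6 other prostanoid synthases tested, Cbr1, a carbonyl reductase that can act on prostaglandin E2, had 372, 347 and 301 normalized counts in control hearts and 419, 412 and 434 in miR-19 mimic hearts. The groups did not overlap, and the log2 fold change was 0.31 (unadjusted limma p 0.0253, adjusted p 0.9996). Akr1b3, an aldose reductase with prostaglandin F synthase activity, was the most abundant of them, with a log2 fold change of 0.22 (limma p 0.120). In the breakdown and transport genes, Cyp4f18, a P450 that acts on leukotriene B4, had 537, 683 and 529 against 359, 365 and 571 (-0.46, unadjusted limma p 0.0419), and the most abundant, Ptgr2, had a log2 fold change of 0.11 (limma p 0.625). No prostanoid receptor of 7 tested and no P450 or epoxide hydrolase of 5 tested passed the unadjusted threshold, and the most abundant of the latter, Ephx2, had a log2 fold change of 0.09 (limma p 0.780). Cyp4f18 shares 5311 bases with Zfp961 on the other strand, and the strand setting of the counting is not given in the sources used here, so reads of this pair may not have been told apart. Without miR-19a/19b mimic replicate 3 the counts over the 50 genes were 10 lower and 13 higher at the unadjusted threshold, against 6.12% and 8.41% of all genes tested, and 2 lower and 4 higher at an adjusted p under 0.05, against 0.729% and 1.71%. In that fit Pla2g7 and Cyp4f18 had log2 fold changes of -0.63 and -0.68 (limma adjusted p 0.0217 and 0.0255), and Ephx2 and Ptgr2 of 0.51 and 0.41 (adjusted p 0.0366 and 0.0494). Pla2g4a and Cysltr1 were at -0.34 and -0.42, Akr1b3, Dpep1, Cbr1 and Ggt5 at 0.34, 0.34, 0.29 and 0.27, and Lta4h at -0.07, none of them past an adjusted p of 0.05. When any other single heart was left out, 0 to 2 of the 50 genes were lower and 0 to 3 higher at the unadjusted threshold. No gene of any kind passed an adjusted p of 0.05 in those fits.

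Genes that overlap the 10 members could share reads with them for the same reason. Tbxas1 overlaps Hipk2 on the other strand by 762 bases, and Hipk2 had a mean of 1986 normalized counts, above that of Tbxas1. Alox5ap overlaps Gm19719 on the other strand by 5117 bases, at a mean of 15.4, and the other overlapping genes listed in the table had means of 0.325 to 16.2. Stretches of at least 100 bases with at least 90% identity to another annotated transcript were found only for Alox5ap with Gm19719 and Ptgs1 with Gm43621, both of which overlap them.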

How the data were processed

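Polyadenylated RNA from the ventricles of 6 mouse hearts, 3 biological replicates per group by the study's methods, was sequenced by the authors. The submitters' processing notes name STAR 2.5.1b, HTSeq 0.6.0, DESeq2 1.10.1 and the genome build mm9. The gene coordinates in the deposited table, which the text prints, were checked against GENCODE M21 (GRCm38): of 25884 matched genes 82.7% had identical start and end, as did 9 of the 10 members (Ltc4s differed at its end), so they are given as GRCm38. The values deposited by the authors are a normalized signal, gene counts divided by a size factor for each library (0.905 to 1.16). Whole reads were recovered from 100% of the values, within a tolerance of 0.05 read. The deposited table also lists gene lengths, and fold changes and p-values of the authors' own comparison, which were not used. A list of dysregulated genes was not used either.

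Genes whose mean reached 1 normalized count were tested by limma 3.58.1 (R 4.3.3) with a variance trend on log2(normalized count + 1), with no covariates, with Benjamini-Hochberg adjustment of the p-values over all 21126 genes. A fold change is on this scale. Alternatives were DESeq2 1.42.0, edgeR 4.0.16 and limma-voom on the recovered reads, total count and upper quartile scaling, no filter on low values, a replicate-number block, a minimum of 10 reads in each heart, a pseudocount of 0.1 and leaving out each heart in turn. Single ratios and sums were compared by exact two-sided permutation tests. The scripts were tested on simulated data. The members and gene lists were chosen with earlier results of these data known. Every member was named, as were the pathway genes with an unadjusted p under 0.05, the most abundant gene of each pathway role (that of the prostanoid receptors is not reported here), and the 3 nearest genes for each of the 3 members with a mean of at least 100 and the largest absolute fold change.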

Additional observations from a re-analysis of the deposited data

How the results depend on the processing

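With all hearts, the 10 genes' fold changes kept their direction and side of the threshold in 82 of 90 alternative values, and 8 changed sign, all close to 0. DESeq2 gave -0.0011 for Ptgis and -0.036 for Alox15, edgeR -0.0022 and -0.022, limma-voom -0.0014 for Ptgis, and total count scaling -0.024 for Ptgis and -0.013 for Alox15. Upper quartile scaling gave 0.0033 for Ptgs1. The median log2 fold change of all genes was -0.021 with total count scaling and 0.016 with upper quartile scaling, against 0.0041 in the main fit. DESeq2 called 28 genes lower and 1 higher, and counted 2 pathway genes lower at an unadjusted p under 0.05. Total count scaling counted 1 member higher (Alox5, limma p 0.0458), 2 pathway genes lower and 0 higher. With the replicate number as a block, 2 pathway genes were lower and 1 higher, and no call on a member changed. Same-numbered hearts did not deviate together (correlations 0.012, -0.28 and -0.41), so these values gave no sign that the numbers pair hearts. With so few hearts a group, a modest effect shared by same-numbered hearts could be missed, so the correlations cannot decide whether hearts were paired. For each of these changes the cause was not tested.

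Leaving out 1 heart at a time gave 0 to 154 genes lower and 0 to 361 higher, 0 to 2 members lower and 0 to 2 higher, a member median of -0.06 to 0.12, and 0 to 10 pathway genes lower and 0 to 13 higher. The upper counts all came without miR-19a/19b mimic replicate 3. Of 60 member values, 49 kept direction and side, 10 changed sign and 1 (Ptgds) passed the threshold. The log2 fold changes ranged from -0.14 to 0.074 for Ptgs1, -0.067 to 0.24 for Ptges, -0.066 to 0.047 for Ptgis, -0.27 to 0.11 for Tbxas1 and -0.63 to 0.47 for Alox15, the genes that changed sign. With 3 hearts a group, the printed intervals bound what could be resolved, and Alox15 had the largest SE.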
